A study of Mus musculus with 48 samples.

Results

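Egr1, Egr2, Egr3, Nr4a1, Ier2, Ier3, Dusp1, Dusp2, Zfp36 and Gem are 10 immediate early genes outside the AP-1 family. They were taken by name, and every probe set that the platform annotation gives to 1 of them alone was used, which came to 12 of the 45101 probe sets on the array. Immediate early genes are switched on within minutes of a growth factor, cytokine or stress signal, through transcription factors that are already present in the cell. Most of their mRNAs decay fast, so their levels follow ongoing signalling, and many of their products, such as the DUSP phosphatases and the mRNA decay factor ZFP36, feed back on the pathway that induced them. In myeloid cells this programme answers to cytokines such as interleukin-3, to microbial products and, in BCR/ABL-transformed cells, to the oncogenic tyrosine kinase itself.

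The genes were measured on 48 Affymetrix MOE430_2 arrays of total RNA from 32D-BCR/ABL cells, a mouse myeloid progenitor line made to express the BCR/ABL oncoprotein. All cells carried the MigRI retroviral vector and were given 4-hydroxytamoxifen (4-HT), the vector control included. The control held the MigRI empty vector, and the other 3 lines a fusion of C/EBPα with the estrogen receptor (ER), which 4-HT activates. The WT C/EBPα-ER line carried the unchanged factor, which drives granulocyte differentiation. The K298E C/EBPα-ER line carried a mutant described as DNA binding-deficient, and the Δ(177-191) C/EBPα-ER line a mutant described as deficient in CDK2/CDK4 interaction. RNA was taken from each line before 4-HT (0 h) and 6, 9 and 12 h after it, and 3 arrays were run per line and time (16 groups). Whether the 3 arrays stem from separate experiments is not settled by the labels, which name both triplicates and separate experiments, and there was 1 line per construct. The p-values therefore measure only the spread between these arrays, and a feature of a line cannot be told apart from an effect of its construct. No culture without 4-HT was sampled at a later time, so 4-HT and time in culture cannot be told apart either.

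Values are MAS5 signals, the Affymetrix intensity summary on a linear scale, and signals of different probe sets were not compared with each other. Changes are differences of log2(signal + 3) from a limma model of the 16 groups, given with their standard error (SE), and folds are on the same scale. A gene is said to rise, fall or change where its adjusted p (Benjamini-Hochberg, over 27167 probe sets) was under 0.05. The adjustment ran separately for each comparison. Counts over genes use 12800 genes, each by its brightest tested probe set. A change from 0 h in a line is called its own change, and the own change minus that of the vector line is the relative change. The vector line shows what followed 4-HT and culture without a fusion, the relative change what the fusion line did beyond it, and WT minus each mutant how the mutants differed from WT. A call that ended in any of 15 leave-out fits, each without the arrays of 1 replicate number in every line (3 fits) or in 1 line (12 fits), is reported with the adjusted p of the fits that ended it. The relative changes share the vector arrays, and the own changes of a line share its 0 h arrays. Because the cells were measured in bulk, fewer cells expressing a gene and less RNA per cell cannot be told apart.

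Array medians ran from a signal of 11 to 19. The Esr1 probe set, which reads the ER part of the fusion, had group means of 14.0 to 18.7 in vector cells, 2107 to 2475 in WT, 860 to 1439 in K298E and 3263 to 4017 in Δ(177-191) cells. The Cebpa probe set did not follow Esr1. Averaged over the 12 arrays of a line, it gave 51.6 in Δ(177-191), 88.9 in vector, 232 in WT and 297.9 in K298E cells, so the Δ(177-191) line, which carries a fusion by its labels, lay below vector. Whether this probe set reads the fusion transcripts was not tested. The Δ(177-191) line differed most from vector before 4-HT, with 28.5% of genes past the threshold against 5.71% in WT and 6.45% in K298E. Of 9 granulocyte and macrophage markers, 8 had a probe set, 7 of them above the array median in each line. Their summed signal was 837 to 1296 in vector, 2020 to 2440 in WT, 1661 to 2119 in K298E and 4129 to 5265 in Δ(177-191) arrays. Fibroblast, lymphoid and erythroid markers were low in all lines, with summed signals of at most 159, 108 and 89. Of 11 progenitor markers 7 or 8 lay above the array median in each line, with Kit, Cd34 and Elane below it in every line. Summed, they gave 7208 to 9161 on Δ(177-191), 6606 to 7795 on vector, 9203 to 11905 on WT and 8629 to 11740 on K298E arrays. Single markers of this list differed in the Δ(177-191) line, where Myb had a mean of 346 against 2054 in vector cells and Gata2 218 against 1425, while Ptprc had 3612 against 1589 and Spi1 1525 against 438. The part of these marker shifts in any result on the Δ(177-191) line was not tested.

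Ier2, Ier3, Dusp1, Dusp2, Zfp36 and Gem accounted for every change of a gene's brightest probe set. Egr1, Egr2, Egr3 and Nr4a1 lay near the array floor in every line, and Gem did so in WT (0 to 21) and vector cells (10 to 33). In vector and WT cells Ier2, Ier3 and Dusp1 fell at all 3 times after 4-HT, though median centring ended the Ier3 calls in WT cells at all 3 times. The Δ(177-191) line departed from these falls in part. There Ier3 fell at all 3 times too, Ier2 only at 12 h and Dusp1 at no time. That Ier2 did not pass at 9 h rests on replicate 1, since without it the fall passed. Before 4-HT the line had 3.11-fold more Ier3, 5.20-fold more Zfp36 and 17.7-fold more Gem than vector cells. The Gem fold depends on the added 3, since the log2 difference of 4.15 was 3.30 with 32 added. After 4-HT its Gem fell while its Dusp1 and Zfp36 rose. In K298E cells the change of Ier3 from 0 h passed at no time, and that of Dusp1 passed only as a fall at 6 h. This fall was lost in 5 of the 15 leave-out fits. At 9 and 12 h all Dusp1 arrays of that line lay above those at 0 h, though the changes did not pass.

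Promoters of the 4 genes below are shown because 3 of them, Dusp1, Zfp36 and Ier3, had like patterns of levels over the groups and Dusp2 did not. Each is the 250 bases before the start of the RefSeq gene (build GRCm38.p6), 5′ to 3′ on the gene's strand. Capitals mark matches, on either strand, to TGACGTCA (the cAMP response element bound by CREB), its core TGACG, the CArG box (bound by serum response factor), GCGNGGGCG (bound by EGR proteins) or the NF-kappa-B site. TTGCNNAA (C/EBP) and TGANTCA (AP-1) were searched too.
Dusp1, chr17:26508473-26508722, minus strand: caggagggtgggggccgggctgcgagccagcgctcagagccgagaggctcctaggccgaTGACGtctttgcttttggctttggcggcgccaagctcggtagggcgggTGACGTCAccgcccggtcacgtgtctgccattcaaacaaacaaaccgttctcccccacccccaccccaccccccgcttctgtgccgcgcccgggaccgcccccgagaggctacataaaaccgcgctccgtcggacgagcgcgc
Zfp36, chr7:28379229-28379478, minus strand: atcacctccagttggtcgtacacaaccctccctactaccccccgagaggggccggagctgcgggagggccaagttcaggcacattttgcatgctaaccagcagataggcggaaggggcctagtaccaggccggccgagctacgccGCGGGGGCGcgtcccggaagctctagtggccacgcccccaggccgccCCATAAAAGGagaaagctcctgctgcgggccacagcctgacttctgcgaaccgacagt
Ier3, chr17:35821463-35821712, plus strand: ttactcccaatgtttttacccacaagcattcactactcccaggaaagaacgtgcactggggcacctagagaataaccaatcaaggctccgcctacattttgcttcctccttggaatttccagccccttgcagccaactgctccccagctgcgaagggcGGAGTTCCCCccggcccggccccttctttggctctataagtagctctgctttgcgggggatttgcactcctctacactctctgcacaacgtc
Dusp2, chr2:127335909-127336158, plus strand: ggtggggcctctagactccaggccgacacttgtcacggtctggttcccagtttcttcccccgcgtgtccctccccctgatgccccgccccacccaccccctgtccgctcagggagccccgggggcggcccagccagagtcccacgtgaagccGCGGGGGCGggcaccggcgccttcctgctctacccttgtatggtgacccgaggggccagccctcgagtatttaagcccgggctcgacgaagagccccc
Dusp1 holds a full TGACGTCA that begins 143 bases before the start, with a core within it on each strand and another core at 191. Zfp36 holds a CArG box at 58 and an EGR match at 105, Ier3 an NF-kappa-B match at 92 and Dusp2 an EGR match at 98. Of 32841 promoters in the table, TGACGTCA was found in 1.55%, TGACG in 17.8%, the CArG box in 1.47%, the EGR letters in 4.7% and the NF-kappa-B letters in 3.9%. TTGCNNAA stood in 9.57% and TGANTCA in 6.75% of promoters, and neither stood in any promoter shown. Nr4a1 and Egr2 were matched too and are not shown. Egr1, Egr3, Ier2 and Gem had no entry. A match is a run of letters and was not measured as a binding site here.

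Own changes fell on the same side for most members that passed. In vector cells 4 of the 10 genes fell at 6 h, 4 at 9 h and 4 at 12 h, where 20.4%, 19.0% and 17.4% of all 12800 genes changed in either direction. In WT cells 3, 5 and 5 fell, beside 32.4%, 30.5% and 30.9% of all genes. In K298E cells 2, 2 and 1 fell, beside 12.4%, 4.91% and 2.32%. In Δ(177-191) cells 1 rose and 3 fell at 6 h, 2 rose and 3 fell at 9 h and 2 rose and 4 fell at 12 h, beside 30.5%, 32.4% and 30.4%. Over the 10 genes the vector line had a median own change of -0.65 at 12 h. The WT line had -0.61, the K298E line -0.37 and the Δ(177-191) line -0.30. That of all genes lay between -0.07 and -0.01.

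**Figure D1:**
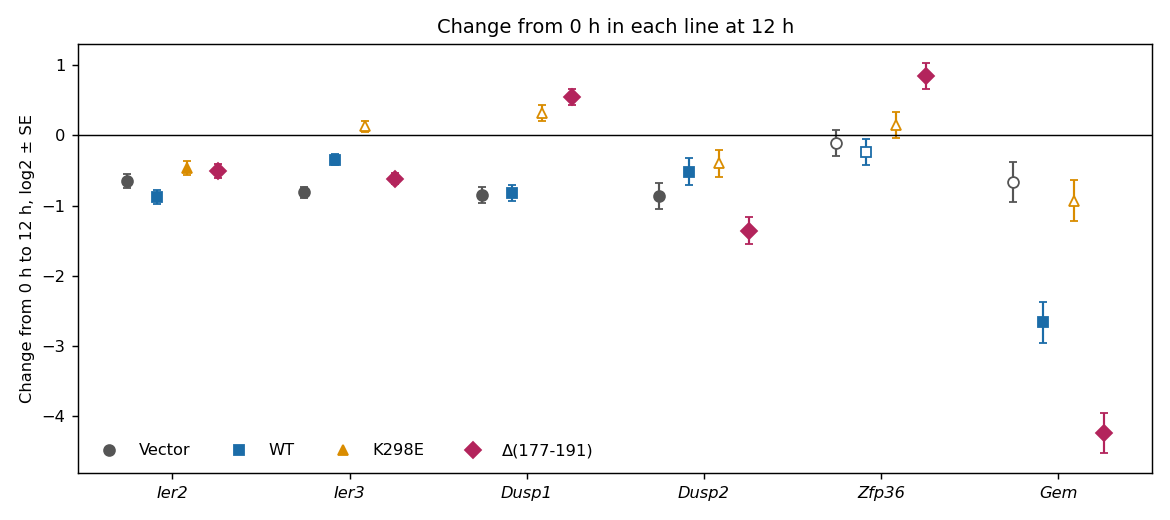
Change from 0 h to 12 h after 4-HT of Ier2, Ier3, Dusp1, Dusp2, Zfp36 and Gem in each line. Values are differences of log2(signal + 3) with their SE (model of 16 groups, 3 arrays each). Filled points passed the threshold of an adjusted p under 0.05. Gem in Δ(177-191) cells, at -4.24 ± 0.29, lies farthest from 0, and Dusp1 and Zfp36 lie above 0 only in that line among filled points.

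Gem encodes a small GTPase of the RGK family, which inhibits voltage-gated calcium channels and acts on the cytoskeleton. Its signal before 4-HT was highest in the Δ(177-191) line, and from 6 h after 4-HT it was at most 35 there. In Δ(177-191) cells the signals were 574, 565 and 587 at 0 h, 16, 25 and 18 at 6 h, 9, 14 and 27 at 9 h and 23, 35 and 26 at 12 h. Every treated array of that line lay below its 0 h arrays, and the 3 treated times overlapped each other. In K298E cells they were 105, 92 and 93 at 0 h, 66, 64 and 42 at 6 h, 40, 40 and 32 at 9 h and 45, 52 and 51 at 12 h. The K298E arrays at 0 h lay between those of vector and Δ(177-191) cells, and all 9 treated arrays lay below them. In vector cells the signals were 28, 28 and 33 at 0 h, 19, 15 and 20 at 6 h, 13, 10 and 20 at 9 h and 24, 16 and 14 at 12 h. In WT cells they were 16, 21 and 17 at 0 h, 16, 9 and 6 at 6 h, 1, 5 and 1 at 9 h and 0, 0 and 1 at 12 h, so the gene was listed at 0 or 1 on all 3 arrays at 12 h.

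The own change of Gem in Δ(177-191) cells was -4.69 ± 0.29 (adjusted p = 3.67e-17) at 6 h, -4.98 ± 0.29 at 9 h and -4.24 ± 0.29 at 12 h, a 18.9-fold fall at the last time. In WT cells Gem fell by 2.05 ± 0.29 (adjusted p = 2.56e-07) at 9 h and 2.66 ± 0.29 (adjusted p = 6.18e-10) at 12 h, and from 6 to 12 h by 1.94 ± 0.29 (adjusted p = 3.64e-06). The sizes depend on the added 3, since the signals were low after 4-HT. With 32 added the Δ(177-191) changes were -3.56, -3.66 and -3.34 at 6, 9 and 12 h, and the WT changes -0.54 at 9 h, -0.63 at 12 h and -0.38 from 6 to 12 h, all still past the threshold. At 0 h Gem was higher than in vector cells in the Δ(177-191) line, by 4.15 ± 0.29 (adjusted p = 1.17e-15), and in the K298E line, by 1.61 ± 0.29 (adjusted p = 0.0002). WT minus vector at 0 h did not pass, at -0.64 ± 0.29 (adjusted p = 0.259) with a 95% interval of -1.22 to -0.06, though all 3 WT arrays lay below the vector arrays. The relative change in Δ(177-191) cells was -4.05 ± 0.41, -4.03 ± 0.41 and -3.58 ± 0.41 at 6, 9 and 12 h (adjusted p = 2.31e-10, 2.58e-10 and 4.45e-09), and with 32 added -3.26, -3.24 and -3.04. The vector and K298E lines each passed at 9 h, with -0.95 ± 0.29 (adjusted p = 0.018) and -1.31 ± 0.29 (adjusted p = 0.00316). The vector call was lost with median centring, with quantile normalization and in 4 of the 15 leave-out fits (adjusted p = 0.0909 to 0.26), and the K298E call in 4 of the 15 leave-out fits (adjusted p = 0.0509 to 0.0753). In K298E cells the changes at 6 h, -0.75 ± 0.29 (adjusted p = 0.105), and 12 h, -0.93 ± 0.29 (adjusted p = 0.0949), did not pass. Both passed with 12 or 32 added in place of 3 and with only the compared arrays in the fit. The WT relative change at 12 h, -2.00 ± 0.41 (adjusted p = 0.000734), was -0.32 with 32 added in place of 3, a lost call. It was lost too with 12 added and without replicate 2 of every line (adjusted p = 0.0785).

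Dusp1 encodes a nuclear phosphatase that switches off the MAP kinases p38, JNK and ERK. It fell in vector and WT cells and rose in Δ(177-191) cells. In vector cells the signals were 153, 162 and 165 at 0 h, 103, 112 and 109 at 6 h, 81, 103 and 73 at 9 h and 93, 87 and 82 at 12 h. In WT cells they were 197, 186 and 199 at 0 h, 102, 108 and 113 at 6 h, 76, 105 and 91 at 9 h and 92, 118 and 116 at 12 h. In both lines all 9 treated arrays lay below the 0 h arrays. In K298E cells the signals were 115, 123 and 127 at 0 h, 96, 100 and 86 at 6 h, 167, 146 and 134 at 9 h and 133, 170 and 155 at 12 h. There 3 treated arrays lay below the 0 h arrays and 6 above. The Δ(177-191) line gave 276, 282 and 288 at 0 h, 347, 350 and 319 at 6 h, 350, 411 and 371 at 9 h and 358, 465 and 422 at 12 h, all 9 treated arrays above the 0 h arrays.

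In vector cells the own change of Dusp1 was -0.55 ± 0.11, -0.89 ± 0.11 and -0.85 ± 0.11 at 6, 9 and 12 h (adjusted p = 0.000309, 9.08e-08 and 2.68e-07). In WT cells it was -0.83 ± 0.11, -1.08 ± 0.11 and -0.83 ± 0.11 (adjusted p = 1.23e-07, 2.57e-10 and 1.42e-07). The Δ(177-191) line gave 0.26 ± 0.11 (adjusted p = 0.092) at 6 h, which did not pass, and rises of 0.41 ± 0.11 (adjusted p = 0.00431) at 9 h and 0.54 ± 0.11 (adjusted p = 0.000195) at 12 h. The K298E line gave a fall of 0.36 ± 0.11 at 6 h (adjusted p = 0.0325) and then rose from 6 to 12 h by 0.68 ± 0.11 (adjusted p = 4.35e-05). Its own changes at 9 h, 0.28 ± 0.11 (adjusted p = 0.187), and 12 h, 0.31 ± 0.11 (adjusted p = 0.195), did not pass. Against vector, the relative change in K298E cells was 1.17 ± 0.16 at 9 h and 1.17 ± 0.16 at 12 h (adjusted p = 2.14e-06 and 2.3e-06). In Δ(177-191) cells it was 0.82 ± 0.16, 1.31 ± 0.16 and 1.40 ± 0.16 (adjusted p = 0.000183, 2.55e-08 and 5.08e-09). The WT relative change at 12 h did not pass, at 0.03 ± 0.16 (adjusted p = 0.981) with a 95% interval of -0.30 to 0.35. Before 4-HT the Δ(177-191) line had 1.75-fold the Dusp1 of vector cells (adjusted p = 2.2e-07), and the K298E line was lower by 0.39 ± 0.11 (adjusted p = 0.0344). This last call was lost in 9 of the 15 leave-out fits (adjusted p = 0.0666 to 0.285). Median centring ended 5 of the 19 calls on Dusp1 (K298E at 0 h, at 6 h and from 6 to 12 h, Δ(177-191) at 9 h and, relative to vector, at 6 h). The K298E fall at 6 h was lost in 5 of the 15 leave-out fits (adjusted p = 0.059 to 0.44), and the Δ(177-191) rise at 9 h without replicate 2 of every line or replicate 2 of Δ(177-191) (adjusted p = 0.0709 to 0.0786).

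Dusp2 encodes a nuclear MAP kinase phosphatase found mostly in blood cells. It fell in the line in which Dusp1 rose, with its lowest signals in Δ(177-191) cells at 6 h. The Δ(177-191) arrays read 136, 155 and 146 at 0 h, 18, 38 and 28 at 6 h, 82, 51 and 64 at 9 h and 50, 60 and 55 at 12 h. In vector cells they were 129, 98 and 120 at 0 h, 80, 73 and 71 at 6 h, 86, 76 and 93 at 9 h and 48, 72 and 68 at 12 h. In WT cells they were 112, 90 and 96 at 0 h, 55, 82 and 75 at 6 h, 65, 52 and 81 at 9 h and 74, 64 and 67 at 12 h. In these 3 lines all 9 treated arrays lay below the 0 h arrays. In K298E cells the signals were 106, 103 and 95 at 0 h, 94, 65 and 86 at 6 h, 62, 84 and 95 at 9 h and 73, 75 and 80 at 12 h, and 8 of 9 treated arrays lay below the 0 h arrays.

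The own change of Dusp2 in Δ(177-191) cells was -2.31 ± 0.19 (adjusted p = 2.36e-13) at 6 h, -1.14 ± 0.19 (adjusted p = 5.83e-06) at 9 h and -1.36 ± 0.19 (adjusted p = 1.81e-07) at 12 h. Its level in that line rose again from 6 to 12 h by 0.95 ± 0.19 (adjusted p = 0.000245). Of the relative changes, only that of Δ(177-191) cells at 6 h passed, at -1.71 ± 0.27 (adjusted p = 4.41e-06). With 32 added in place of 3 the own change at 6 h was -1.58 and the relative change -1.11. In vector cells Dusp2 fell by 0.60 ± 0.19 (adjusted p = 0.0219) at 6 h and 0.86 ± 0.19 (adjusted p = 0.00087) at 12 h. In WT cells it fell by 0.58 ± 0.19 (adjusted p = 0.0178) at 9 h and 0.52 ± 0.19 (adjusted p = 0.0382) at 12 h. In K298E cells its own change passed at no time, the 12 h value being -0.40 ± 0.19 (adjusted p = 0.422). The vector calls were lost without replicate 3 of every line or replicate 1 or 3 of vector (adjusted p = 0.125 to 0.273) at 6 h and without replicate 1 of vector (adjusted p = 0.105) at 12 h. The WT calls were lost in 5 of the 15 leave-out fits (adjusted p = 0.0548 to 0.14) at 9 h and in 7 of the 15 leave-out fits (adjusted p = 0.0503 to 0.207) at 12 h. Both WT calls ended with median centring too, and quantile normalization ended them and the vector call at 6 h.

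Zfp36 encodes tristetraprolin, which binds AU-rich elements of cytokine and early gene mRNAs and speeds their decay. It was high in 1 line, Δ(177-191), before 4-HT, and rose further there. The Δ(177-191) arrays read 255, 279 and 251 at 0 h, 388, 406 and 426 at 6 h, 480, 439 and 443 at 9 h and 395, 502 and 521 at 12 h. All 9 treated arrays lay above the 0 h arrays. In vector cells they were 37, 59 and 50 at 0 h, 50, 41 and 55 at 6 h, 48, 40 and 27 at 9 h and 34, 48 and 52 at 12 h. In WT cells they were 64, 49 and 39 at 0 h, 51, 50 and 53 at 6 h, 41, 35 and 50 at 9 h and 41, 40 and 44 at 12 h. In K298E cells they were 31, 35 and 41 at 0 h, 38, 60 and 43 at 6 h, 33, 37 and 36 at 9 h and 33, 37 and 51 at 12 h. The arrays of these 3 lines overlapped at every time, all between 27 and 64.

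Before 4-HT Zfp36 stood 2.38 ± 0.19 (adjusted p = 3.98e-14) above vector in the Δ(177-191) line. Its own change there was 0.63 ± 0.19 (adjusted p = 0.00844) at 6 h, 0.79 ± 0.19 (adjusted p = 0.000862) at 9 h and 0.84 ± 0.19 (adjusted p = 0.000437) at 12 h. The relative change was 1.12 ± 0.26 (adjusted p = 0.00136) at 9 h and 0.95 ± 0.26 (adjusted p = 0.00697) at 12 h. The other lines passed at no time, with own changes at 12 h of -0.11 ± 0.19 (vector), -0.24 ± 0.19 (WT) and 0.15 ± 0.19 (K298E). The 6 h rise was lost with median centring and without replicate 2 or 3 of every line or replicate 3 of Δ(177-191) (adjusted p = 0.0658 to 0.0992). The relative changes were lost without replicate 3 of every line (adjusted p = 0.0687) at 9 h and without replicate 2 of every line or replicate 3 of Δ(177-191) (adjusted p = 0.0604 to 0.141) at 12 h.

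**Figure D2:**
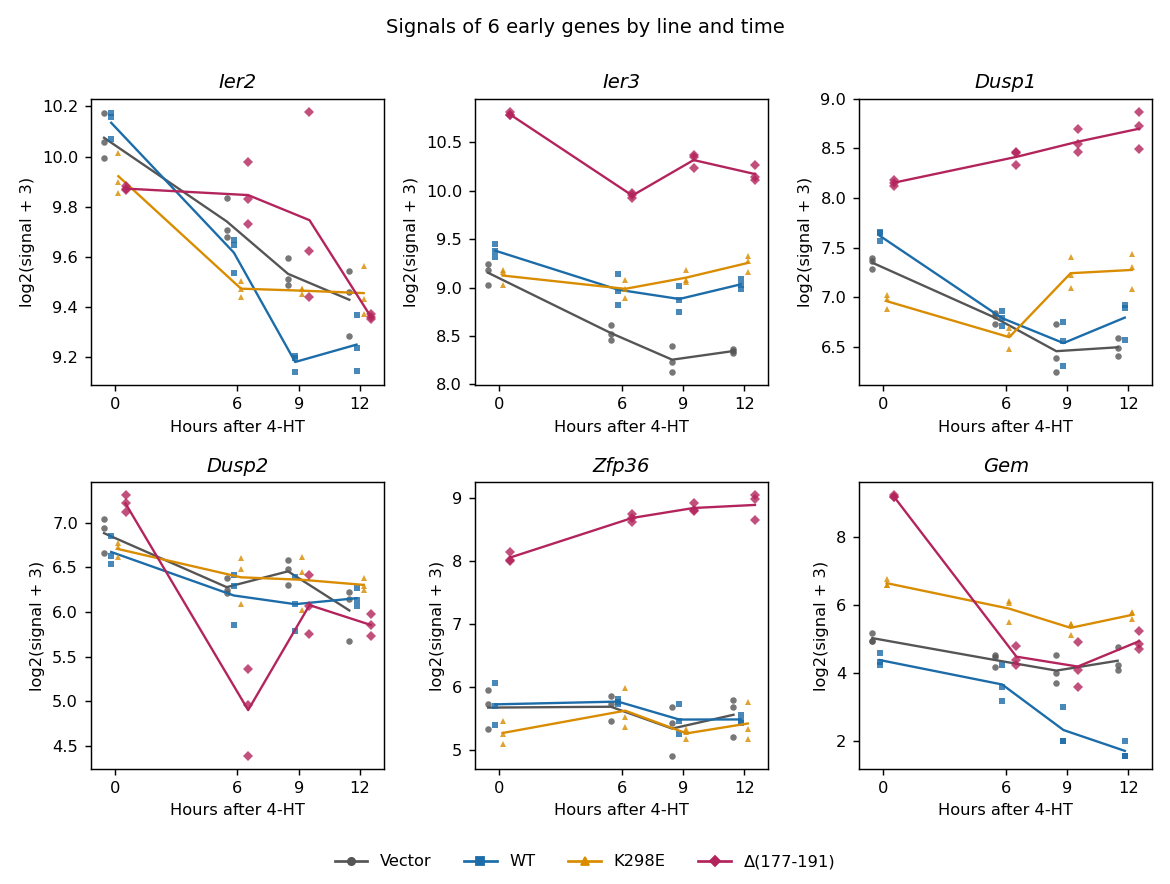
Signals of Ier2, Ier3, Dusp1, Dusp2, Zfp36 and Gem on all 48 arrays against hours after 4-HT, as log2(signal + 3), 3 arrays per line and time, with lines through the group means. Gem falls from 565 to 587 at 0 h to at most 35 after 4-HT in Δ(177-191) cells, and Zfp36 in that line lies above every array of the other lines.

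Ier3 encodes a short-lived protein that acts on apoptosis and ERK signalling. It fell in vector, WT and Δ(177-191) cells, and in K298E cells its change from 0 h passed at no time. In vector cells the signals were 519, 579 and 603 at 0 h, 364, 389 and 348 at 6 h, 303 ± 29.4 (mean ± SD, n = 3) at 9 h and 327, 322 and 317 at 12 h. In WT cells they were 635, 662 and 695 at 0 h, 450, 563 and 497 at 6 h, 428, 516 and 466 at 9 h and 543, 503 and 517 at 12 h. The Δ(177-191) line gave 1800, 1754 and 1752 at 0 h, 966, 990 and 1003 at 6 h, 1322, 1297 and 1202 at 9 h and 1124, 1228 and 1104 at 12 h. In each of these lines all 9 treated arrays lay below the 0 h arrays. In K298E cells they were 571, 578 and 518 at 0 h, 539, 504 and 472 at 6 h, 537, 529 and 576 at 9 h and 639, 569 and 617 at 12 h, with treated and 0 h arrays overlapping.

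The own change of Ier3 at 12 h was -0.81 ± 0.08 (adjusted p = 1.8e-10) in vector, -0.35 ± 0.08 (adjusted p = 0.000519) in WT and -0.62 ± 0.08 (adjusted p = 2.12e-08) in Δ(177-191) cells. In K298E cells it was 0.13 ± 0.08 (adjusted p = 0.608), with a 95% interval of -0.03 to 0.29. Against the falling vector line the relative change in K298E cells was 0.48 ± 0.11 (adjusted p = 0.0145) at 6 h, 0.88 ± 0.11 (adjusted p = 3.82e-07) at 9 h and 0.94 ± 0.11 (adjusted p = 8.41e-08) at 12 h. In WT cells it was 0.40 ± 0.11 (adjusted p = 0.0227) at 9 h and 0.46 ± 0.11 (adjusted p = 0.00522) at 12 h, and in Δ(177-191) cells 0.42 ± 0.11 (adjusted p = 0.00428) at 9 h. Before 4-HT Ier3 was 3.11-fold higher in Δ(177-191) than in vector cells, at 1.64 ± 0.08 (adjusted p = 4.4e-21). From 6 to 12 h it rose in K298E cells by 0.27 ± 0.08 (adjusted p = 0.0235) and in Δ(177-191) cells by 0.22 ± 0.08 (adjusted p = 0.0477). The K298E relative change at 6 h was lost in 6 of the 15 leave-out fits (adjusted p = 0.0569 to 0.533). The WT relative changes were lost in 6 of the 15 leave-out fits (adjusted p = 0.0554 to 0.312) at 9 h and without replicate 2 or 3 of every line or replicate 3 of vector (adjusted p = 0.0678 to 0.162) at 12 h, and that of Δ(177-191) cells without replicate 3 of every line (adjusted p = 0.101). Centring each array on its median ended 12 of the 19 calls on Ier3, namely the WT own changes, the relative changes in WT and K298E cells and in Δ(177-191) cells at 9 h, the rises from 6 to 12 h and the difference between WT and K298E. The K298E rise from 6 to 12 h was lost in 6 of the 15 leave-out fits (adjusted p = 0.0567 to 0.387), and the Δ(177-191) rise in 12 of the 15 leave-out fits (adjusted p = 0.0503 to 0.315).

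Ier2 encodes a nuclear early response protein. It fell in all 4 lines by 12 h, and its 16 group means spanned 0.95 log2 units in all. In vector cells the signals were 1016, 1063 and 1152 at 0 h, 818, 833 and 911 at 6 h, 716, 727 and 771 at 9 h and 701, 621 and 743 at 12 h. In WT cells they were 1139, 1073 and 1153 at 0 h, 799, 739 and 811 at 6 h, 587, 562 and 584 at 9 h and 564, 600 and 658 at 12 h. In K298E cells they were 922, 951 and 1031 at 0 h, 708, 692 and 724 at 6 h, 708, 707 and 697 at 9 h and 660, 687 and 754 at 12 h. In these 3 lines all 9 treated arrays lay below the 0 h arrays. The Δ(177-191) line gave 933, 940 and 930 at 0 h, 907, 846 and 1007 at 6 h, 1156, 785 and 691 at 9 h and 654, 651 and 660 at 12 h, with 2 treated arrays above the 0 h arrays, 1 of them the 9 h array at 1156.

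By 12 h the vector line had an own change in Ier2 of -0.65 ± 0.10 (adjusted p = 3.57e-06) and the WT line of -0.88 ± 0.10 (adjusted p = 1.14e-09). The K298E line had -0.47 ± 0.10 (adjusted p = 0.00354) and the Δ(177-191) line -0.51 ± 0.10 (adjusted p = 6.22e-05). At 6 h it was -0.33 ± 0.10 (adjusted p = 0.0138), -0.52 ± 0.10 (adjusted p = 5.19e-05) and -0.45 ± 0.10 (adjusted p = 0.00132) in vector, WT and K298E cells. At 9 h these 3 lines gave -0.54 ± 0.10 (adjusted p = 5.91e-05), -0.95 ± 0.10 (adjusted p = 1.74e-10) and -0.46 ± 0.10 (adjusted p = 0.00243). Ier2 in Δ(177-191) cells did not pass at 6 h (-0.03 ± 0.10) or 9 h (-0.13 ± 0.10, adjusted p = 0.394). The 9 h fall passed with array weights and without replicate 1 of every line or of Δ(177-191) (lowest adjusted p = 0.00447). Replicate 1 of that line holds the 9 h array at 1156. From 6 to 12 h Ier2 fell by 0.31 ± 0.10 (adjusted p = 0.0433) in vector, 0.37 ± 0.10 (adjusted p = 0.00863) in WT and 0.48 ± 0.10 (adjusted p = 0.000317) in Δ(177-191) cells. The 1 relative change of Ier2 that passed was 0.42 ± 0.14 (adjusted p = 0.0301) in Δ(177-191) cells at 9 h, and it was lost in 6 of the 15 leave-out fits (adjusted p = 0.0678 to 0.38). The K298E falls were lost without replicate 2 of every line (adjusted p = 0.0851) at 6 h, without replicate 2 or 3 of every line or replicate 3 of K298E (adjusted p = 0.0782 to 0.116) at 9 h and without replicate 2 of every line or replicate 1 or 2 of K298E (adjusted p = 0.0738 to 0.246) at 12 h. The vector fall at 6 h was lost in 5 of the 15 leave-out fits (adjusted p = 0.0665 to 0.193), and that from 6 to 12 h in 11 of the 15 leave-out fits (adjusted p = 0.051 to 0.486). Median centring ended 9 of the 16 calls on Ier2, namely the K298E falls, the falls from 6 to 12 h, the relative change and the differences of WT from K298E and from Δ(177-191). The WT fall from 6 to 12 h was lost without replicate 1 or 2 of every line or replicate 1 of WT (adjusted p = 0.0589 to 0.166).

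Egr1, Egr2 and Egr3 are zinc-finger transcription factors that bind GC-rich sites, and Nr4a1 is an orphan nuclear receptor also known as NUR77. All 4 had signals of 1 to 39 on the 48 arrays, around the median signal of 14 over all probe sets and arrays. Their brightest probe sets passed the limma test in 0 of 120 gene-by-comparison tests, of which 4 had an unadjusted p under 0.05. Of all 12800 genes, 1.29% to 32.4% passed in the 30 comparisons. The share among genes of like low signal was not taken, so the count of 0 is not read as a trait of these genes. At signals this low the SE of an own change was about 0.45 on the log2 scale, the median over the 4 genes. Changes well above this size could be missed, since the values of -1.08 and -0.92 given next did not pass. The SE of a relative change was larger still, for example 0.63 for Egr1 and 0.87 for Egr3. Egr1 in WT cells had signals of 17, 16 and 16 at 0 h and 13, 3 and 5 at 9 h, a change of -1.08 ± 0.45 (adjusted p = 0.0754). Nr4a1 in vector cells had 15, 24 and 13 at 0 h and 4, 8 and 12 at 12 h, a change of -0.92 ± 0.35 (adjusted p = 0.0801). Egr2 had its highest group means in Δ(177-191) cells, with 20, 20 and 10 at 0 h, 31, 23 and 18 at 9 h and 14, 24 and 34 at 12 h. The 12 h change was 0.43 ± 0.45 (adjusted p = 0.578), and the arrays overlapped those at 0 h. Egr3 in WT cells had 18, 27 and 24 at 0 h and 7, 10 and 25 at 12 h, a change of -0.74 ± 0.62 (adjusted p = 0.445).

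Egr2 and Egr3 each had another, dimmer probe set. That of Egr2 lay below the filter on low signals and was not tested. Its signals were 0 to 26, with group means of 10.3 to 12.7 in treated Δ(177-191) cells and at most 7.67 elsewhere. That of Egr3 was tested. In WT cells it had signals of 19, 6 and 9 at 0 h, 16, 19 and 12 at 6 h, 2, 7 and 4 at 9 h and 1, 1 and 1 at 12 h. It fell by 1.74 ± 0.49 (adjusted p = 0.00585) from 0 to 12 h and by 2.20 ± 0.49 (adjusted p = 0.00138) from 6 to 12 h. The brighter probe set did not pass in either comparison, at -0.74 ± 0.62 (adjusted p = 0.445) and -0.51 ± 0.62 (adjusted p = 0.699). Both probe sets gave lower values at 12 h, and the difference between them was not tested. The dimmer probe set read 1 on all 3 WT arrays at 12 h, below the added 3, so the sizes of its falls are set by that constant.

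**Figure D3:**
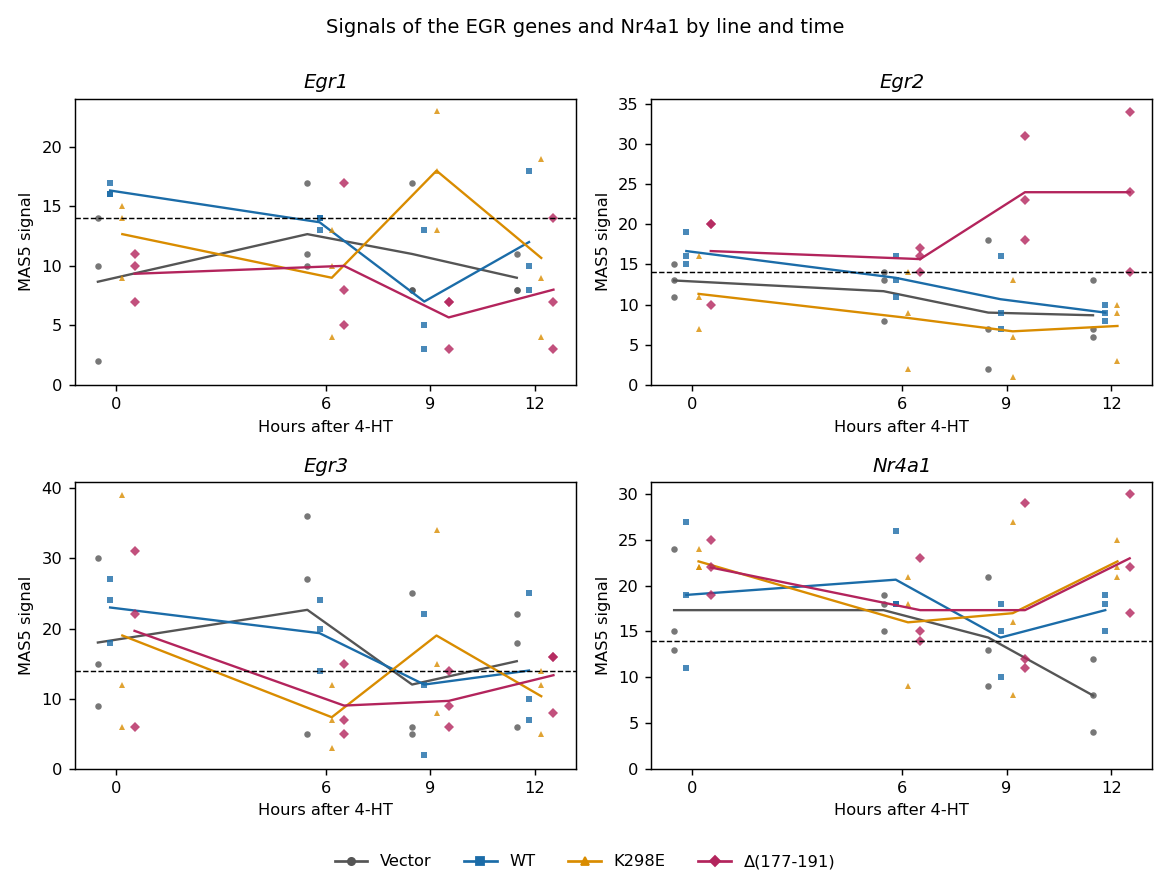
MAS5 signals of Egr1, Egr2, Egr3 and Nr4a1 (brightest probe set of each) on all 48 arrays against hours after 4-HT, on a linear axis, with lines through the group means of 3 arrays. The dashed line is the median signal of all probe sets, 14, and the 4 genes scatter around it between 1 and 39 in every line.

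At 0 h, 4 of the 10 genes (Ier3, Dusp1, Zfp36 and Gem) were higher in Δ(177-191) than in vector cells, where 28.5% of all genes differed. In K298E cells Gem was higher and Dusp1 lower, where 6.45% of genes differed. In WT cells limma called 0 of 10, with 3 at an unadjusted p under 0.05, where 5.71% of genes differed. Among relative changes, WT cells had 0 of 10 called at 6 h and also 0 at an unadjusted p under 0.05, 1 higher at 9 h and 1 higher and 1 lower at 12 h. Of all genes, 6.23%, 6.09% and 7.18% passed in these comparisons. K298E cells had 1, 2 and 2 of 10 higher, beside 1.29%, 5.15% and 5.60%. Δ(177-191) cells had 1 higher and 2 lower at 6 h, 4 higher and 1 lower at 9 h and 2 higher and 1 lower at 12 h, beside 18.2%, 22.3% and 22.3%. Between 6 and 12 h, 1 of 10 fell in vector and 2 fell in WT cells, beside 9.06% and 15.2% of all genes. In the same interval 2 rose in K298E cells, and 2 rose and 1 fell in Δ(177-191) cells, beside 10.6% and 18.3%.

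The mean own change over 6, 9 and 12 h was then compared directly between WT and each mutant. Dusp1 had the lower mean change in WT in both comparisons, by 0.99 ± 0.13 (adjusted p = 2.22e-07) against K298E and by 1.32 ± 0.13 (adjusted p = 1.21e-10) against Δ(177-191). The mean change of Ier3 was lower in WT than in K298E by 0.41 ± 0.09 (adjusted p = 0.00105), and against Δ(177-191) it gave 0.23 ± 0.09 (adjusted p = 0.0706), which did not pass. The mean change of Ier2 was lower in WT by 0.33 ± 0.11 (adjusted p = 0.0455) against K298E and by 0.56 ± 0.11 (adjusted p = 0.000172) against Δ(177-191). That of Zfp36 was lower in WT than in Δ(177-191) by 0.90 ± 0.21 (adjusted p = 0.00143). Gem and Dusp2 went the other way, with mean changes 2.83 ± 0.33 (adjusted p = 8.69e-09) and 1.07 ± 0.22 (adjusted p = 0.000206) higher in WT than in Δ(177-191). Against K298E, Gem gave -0.81 ± 0.33 (adjusted p = 0.106) with a 95% interval of -1.49 to -0.14, and Dusp2 gave -0.18 ± 0.22 (adjusted p = 0.703) with an interval of -0.62 to 0.27. In all, 3 of 10 genes passed against K298E, where 17.5% of all genes did, and 5 of 10 against Δ(177-191), where 25.3% did. The Ier2 difference from K298E was lost in 13 of the 15 leave-out fits (adjusted p = 0.0507 to 0.287), and that of Ier3 without replicate 3 of every line (adjusted p = 0.137). Both ended with median centring too, as did the Ier2 difference from Δ(177-191), at -0.36.

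**Figure D4:**
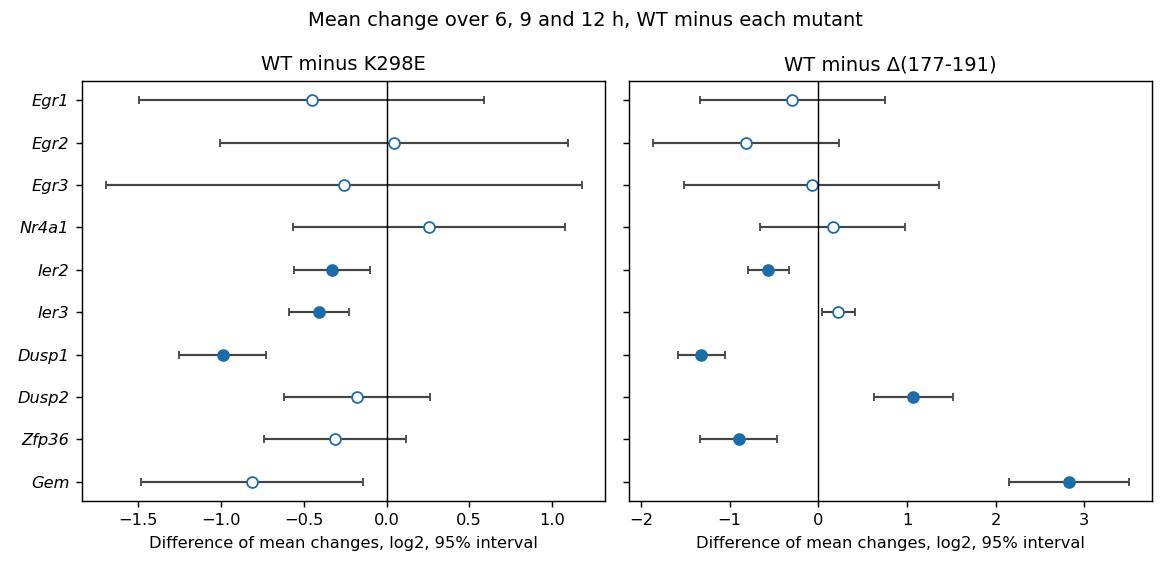
Mean change over 6, 9 and 12 h in WT minus that in K298E or Δ(177-191) cells for the 10 genes, as a difference of log2(signal + 3) with its 95% interval; filled points passed the threshold. Dusp1 lies below 0 against both mutants, and Gem and Dusp2 lie above 0 against Δ(177-191).

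Across the 16 group means, Ier3, Dusp1 and Zfp36 had like patterns, with Pearson's r of 0.91 for Ier3 and Dusp1, 0.91 for Dusp1 and Zfp36 and 0.84 for Ier3 and Zfp36. Dusp2 and Zfp36 had r = -0.39. The 4 groups of each line share their cells, and the high Δ(177-191) groups weigh on these values. Over all tested genes the patterns most like Dusp1 were those of Tmem135 (r = 0.98) and Anxa4 (0.97). For Zfp36 they were B2m and Specc1 (0.98 each), for Ier3 Snx20 (0.98) and Pqlc3 (0.95), for Gem Abhd2 (0.91) and Psd4 (0.90), and for Dusp2 Smpd1 (0.91) and Srr (0.90). Egr2, near the floor with group means of 6.67 to 24.0, was nearest to Rbpj (0.94) and Slc7a11 (0.93). Egr1, Egr3 and Nr4a1, near the floor too, reached at most 0.79 (Cldn22), 0.84 (Psg17) and 0.79 (Flt3). Ier2 spanned less than 1 log2 unit over the groups and was not compared.

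Relatives of these genes were described from lists, beside which 17.4%, 30.9%, 2.32% and 30.4% of all genes changed at 12 h in vector, WT, K298E and Δ(177-191) cells. Of 10 EGR and NR4A relatives and cofactors 6 were tested, and at 12 h 2 fell in vector, 3 fell in WT, and 2 rose and 1 fell in Δ(177-191) cells. In K298E cells limma called 0 of the 6, with 0 at an unadjusted p under 0.05. Nr4a3, the family member beside Nr4a1, was seen in Δ(177-191) cells, with a signal of 75.0 ± 10.8 (SD, n = 3) at 0 h and 268 ± 23.1 at 12 h. This was a change of 1.80 ± 0.44. Its group mean was at most 6.67 in the other lines. Klf10, a zinc-finger repressor, fell at 12 h by 0.91 ± 0.14 in vector, 1.82 ± 0.14 in WT and 1.78 ± 0.14 in Δ(177-191) cells. Of 18 ERK feedback and target genes 15 were tested, and at 12 h 3 fell in vector, 1 rose and 5 fell in WT, 3 fell in K298E, and 1 rose and 7 fell in Δ(177-191) cells. The riser in both lines was Phlda1, at 0.57 ± 0.10 in WT and 1.93 ± 0.10 in Δ(177-191) cells, and it fell in vector cells by 0.68 ± 0.10. The median own change of the ERK list at 12 h was -0.49 in Δ(177-191) and -0.15 in WT cells, where all genes had -0.05 and -0.07.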

How the data were processed

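Total RNA of 48 samples was hybridised to Affymetrix MOE430_2 arrays. The deposited values are linear signal intensities, made by the authors with MAS5 per the submitters' processing notes; its version and other steps are not given in the sources used here. After 2% was trimmed at either end, each array's mean intensity came to 99.9994 to 100.017, a common scale. No depth exists for arrays, and their number limits the precision.

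Of 45101 probe sets, 64 controls were left out. Platform annotation gave 34945 probe sets 1 symbol each, 932 several and 9160 none. Symbols were brought up to date from a RefSeq table of GRCm38.p6, used for names and gene positions. Signals were transformed to log2(signal + 3), 3 being their 20th percentile. A probe set was tested if any group mean exceeded 4.09, the median of all log2 values. A model of 16 group means was fitted with limma (version 3.58.1, under R 4.3.3), with a variance trend and 32 residual degrees of freedom, for 30 contrasts, adjusted by Benjamini-Hochberg. Adding 3 understates changes of dim genes. The method was tested on simulated data. Alternatives are given in the closing section.

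Members were given by name. For each whose group means spanned at least 1 log2 unit, the 2 genes of highest Pearson's r over the 16 group means were named. From each of 10 lists up to 2 rises and 2 falls were named. The members and lists were chosen with earlier results of these data known.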

Additional observations from a re-analysis of the deposited data

Results flagged for a closer look

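The changes of 6 genes after 4-HT differed between lines by the limma test of the difference itself (adjusted p under 0.05). All values are differences of log2 changes, and comparisons with vector share its arrays. Relative to vector, Ier3 was higher in WT cells at 9 h (0.40) and 12 h (0.46), in K298E cells at 6, 9 and 12 h (0.48, 0.88 and 0.94) and in Δ(177-191) cells at 9 h (0.42). Dusp1 was higher relative to vector in K298E cells at 9 and 12 h (1.17 and 1.17) and in Δ(177-191) cells at 6, 9 and 12 h (0.82, 1.31 and 1.40). In Δ(177-191) cells the relative change of Zfp36 was 1.12 at 9 h and 0.95 at 12 h, that of Ier2 0.42 at 9 h and that of Dusp2 -1.71 at 6 h. The relative change of Gem was -4.05, -4.03 and -3.58 at 6, 9 and 12 h in Δ(177-191) cells and -2.00 at 12 h in WT cells. The WT size depends on the added 3. That WT call was lost with 12 or 32 added in place of 3 and without replicate 2 of every line. Median centring ended every Ier3 call listed here, that of Ier2, and that of Dusp1 in Δ(177-191) cells at 6 h. Under the 24 alternatives of the next section, the Ier3 call held in 16 (WT, 9 h), 20 (WT, 12 h) and 17 (K298E, 6 h). The Ier2 call held in 15, and the Zfp36 calls in 23 (9 h) and 22 (12 h).

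Between WT and K298E cells the mean change differed for Dusp1 (-0.99), Ier3 (-0.41) and Ier2 (-0.33). The Ier2 call held in only 8 of the 24 alternatives and the Ier3 call in 22, and both ended with median centring. Between WT and Δ(177-191) cells the mean change differed for Dusp1 (-1.32), Zfp36 (-0.90), Ier2 (-0.56), Dusp2 (1.07) and Gem (2.83). Of these, the Ier2 call ended with median centring. Groups of 3 arrays were too small to be screened for single arrays that stand apart.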

How the results depend on the processing

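The 10 genes gave 86 calls in 300 tests, and 49 of these calls held under all 24 alternatives. No call turned its direction, and 19 other tests passed under at least 1 alternative. Calls lost numbered 30 with median centring, 7 without the filter on low signals, 5 with quantile normalization, 5 with only the compared arrays in the fit, 3 without the variance trend, 1 each with 12 or 32 added in place of 3, 0 with array weights and 0 with the replicate block. By gene, calls held under all alternatives for 14 of 19 on Dusp1, 12 of 15 on Gem, 7 of 19 on Ier3, 6 of 16 on Ier2, 6 of 10 on Dusp2 and 4 of 7 on Zfp36. Median centring shifted the median over all genes by -0.14 to 0.20 (log2), by over 0.1 in 12 of 30 comparisons, and the cause of the lost calls was not tested.

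Counts of calls over the 10 genes changed as follows. With median centring the own changes went from 12 to 11 in vector, 13 to 8 in WT, 5 to 1 in K298E and 15 to 13 in Δ(177-191) cells, the relative changes from 3 to 1 in WT, 5 to 2 in K298E and 11 to 8 in Δ(177-191) cells, WT minus K298E from 3 to 1, WT minus Δ(177-191) from 5 to 4, K298E against vector at 0 h from 2 to 1, and 12 h against 6 h from 1 to 0 in vector, 2 to 1 in WT, 2 to 0 in K298E and 3 to 1 in Δ(177-191) cells. Without the filter, K298E at 0 h gave 1, and 12 h against 6 h in vector cells gave 0; without the variance trend it gave 0 and with array weights 2. With the compared arrays alone, K298E at 12 h against 6 h gave 1. With quantile normalization the own changes numbered 16 in Δ(177-191), 10 in vector, 11 in WT and 4 in K298E cells, and WT against vector at 0 h gave 1 (Ier3, 0.23) in place of 0. The cause of these changes was not tested. With a replicate left out, own changes numbered 9 to 12 in vector, 11 to 14 in WT, 0 to 5 in K298E and 13 to 16 in Δ(177-191) cells. Relative changes numbered 0 to 4 in WT, 4 to 5 in K298E and 9 to 11 in Δ(177-191) cells. At 0 h there were 1 to 2 calls in K298E and 4 in Δ(177-191) cells. WT minus K298E gave 1 to 3 and WT minus Δ(177-191) 5. For 12 h against 6 h there were 0 to 1 in vector, 1 to 2 in WT, 1 to 2 in K298E and 2 to 3 in Δ(177-191) cells.

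The replicate numbers were not used to pair the arrays. Deviations of arrays of the same number and line at different times had a mean correlation of 0.01, over 0.1 in 19 of 72 pairs. Arrays of other numbers in the same line had -0.005, over 0.1 in 33 of 144 pairs. Between lines the same number gave 0.04, over 0.1 in 90 of 288 pairs, and other numbers -0.02, over 0.1 in 109 of 576 pairs. Same-numbered arrays of different lines were thus slightly more alike, and the reason was not tested. With the replicate block the counts were as without it, for example 13 own changes in WT and 5 in K298E cells. No pair of arrays held identical values. Egr1, Egr2, Egr3 and Nr4a1 lay near the floor, where signal limits what can be seen.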

Other observations

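Beside the 10 genes, early NF-kappa-B genes were described at 12 h, where 17.4%, 30.9%, 2.32% and 30.4% of all genes changed in vector, WT, K298E and Δ(177-191) cells. Of 16 in the list 15 were tested. At 12 h 7 fell in vector cells, among them Cxcl2, a neutrophil chemokine, by 1.80 ± 0.25 and Nfkbia, the inhibitor of NF-kappa-B, by 1.01 ± 0.10. In WT cells 2 rose and 7 fell, in K298E cells limma called 0 with 3 at an unadjusted p under 0.05, and in Δ(177-191) cells 8 rose, led by the chemokines Ccl3 (3.95 ± 0.50) and Ccl4 (2.89 ± 0.20). The median own change of the 15 was 0.47 in Δ(177-191) and -0.48 in vector cells, where all genes had -0.05 and -0.04. At 6 h 4 of the 15 rose and 6 fell in Δ(177-191) cells and 5 rose and 7 fell in WT cells, beside 30.5% and 32.4% of all genes. Before 4-HT, where 28.5% of all genes differed, 11 of the 15 were higher in Δ(177-191) than in vector cells, Icam1 by 2.46 ± 0.11. The summed granulocyte and macrophage markers of that line were higher too, at 4129 to 5265 against 837 to 1296 in vector arrays, over all times. The part of these markers in the result was not tested.

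The other lists at 12 h were as follows, to be read beside the same shares of all genes (17.4%, 30.9%, 2.32% and 30.4% in vector, WT, K298E and Δ(177-191) cells). Of 11 AP-1 factors 5 fell in vector and 3 in WT cells, and 4 rose and 3 fell in Δ(177-191) cells; Junb fell by 1.24 ± 0.12, 0.84 ± 0.12 and 1.35 ± 0.12, and Fosl1 rose by 1.63 ± 0.31 in the last line. Of 28 other primary response genes 21 were tested; 12 fell in vector, 2 rose and 13 fell in WT, 2 rose and 4 fell in K298E, and 3 rose and 9 fell in Δ(177-191) cells. Gadd45a, a growth arrest and stress gene, fell by 0.86 ± 0.16 in vector cells and rose in every fusion line, by 1.41 ± 0.16 (WT), 0.72 ± 0.16 (K298E) and 1.65 ± 0.16 (Δ(177-191)). Of 10 tested CREB and cAMP responsive genes (of 11) 4 fell in vector, 2 rose and 2 fell in WT, and 5 rose and 2 fell in Δ(177-191) cells, the phosphodiesterase Pde4b by 0.84 ± 0.14. Of 10 tested SRF factors and targets (of 13) 2 fell in vector, 1 rose and 1 fell in WT, and 2 rose in Δ(177-191) cells, Mrtfa by 1.45 ± 0.11 and Vcl by 1.22 ± 0.08. Of 10 tested ZFP36 family members and decay partners (of 12) 2 rose and 2 fell in vector, 3 rose and 2 fell in WT, and 1 rose and 1 fell in Δ(177-191) cells; Zfp36l2 fell by 0.37 ± 0.10, 1.01 ± 0.10 and 1.58 ± 0.10, while Zfp36 itself rose in the last line. Of 11 tested MAP kinase genes (of 17) 1 rose in vector, 2 rose and 1 fell in WT, 1 rose in K298E and 5 rose in Δ(177-191) cells, Mapkapk2 by 1.13 ± 0.08. Of 8 tested heat shock and stress genes (of 10) 1 rose and 2 fell in vector, 1 rose and 3 fell in WT, 2 fell in K298E, and 3 rose and 3 fell in Δ(177-191) cells. In K298E cells limma called 0 of the AP-1, CREB, SRF and ZFP36 lists, with 5, 5, 1 and 1 at an unadjusted p under 0.05.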
